A study of Mus musculus with 6 samples.

Results

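The genes described here are 10 cyclins and cyclin-dependent kinases that drive the cell cycle: the D-type cyclins Ccnd1, Ccnd2 and Ccnd3, the E-type cyclins Ccne1 and Ccne2, the A-type cyclin Ccna2, and the kinases Cdk4, Cdk6, Cdk2 and Cdk1. They were chosen by gene symbol and are 10 of the 24410 symbols in the deposited table. All 10 were measured in every library and passed the filter on low values. RNA was sequenced from 2 groups of C57BL/6 mice, both 5 months old: Txnip -/- animals (KO 1 to KO 3) and wild-type animals (WT 1 to WT 3). In both groups, bone marrow cells without markers of mature lineages were expanded for 3 days in a serum-free medium supplemented with fetal bovine serum, penicillin/streptomycin, murine stem cell factor and murine thrombopoietin. CD41+ cells were then sorted for RNA. How the Txnip allele was made, and whether each library comes from 1 mouse or a pool, is not stated in the labels. The comparison asks whether loss of Txnip, a thioredoxin-interacting alpha-arrestin, is accompanied by a change in these genes in cells growing toward the megakaryocyte lineage. Because the samples are bulk cells, fewer cells of a type and less RNA per cell cannot be told apart.

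Cyclins are the regulatory subunits of cyclin-dependent kinases, and their levels rise and fall through the cell cycle. D-type cyclins are induced by growth factors such as thrombopoietin and stem cell factor and bind Cdk4 and Cdk6, which phosphorylate the retinoblastoma protein and release E2F transcription factors. Cyclins E and A then act through Cdk2 in the entry into and passage through S phase, and cyclins A and B act through Cdk1 toward mitosis. Megakaryocytes replicate their DNA repeatedly without dividing, a process called endomitosis, and cyclins D3 and E are known to take part in it in mice.

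Levels are given in FPKM, which scales the fragments of a gene by transcript length and by the mapped fragments of the library. Their sums were between 715205 and 1131641 per library, and WT 2 had the largest. The RNAs Rpph1 and Rmrp took 30.4% of the sum in WT 2, against 10.7% to 20.6% in the other libraries. Rescaling to a common sum therefore lowers WT 2 the most. The spacing of low FPKM values put the depth at 14500000 to 25800000 fragments in KO libraries and 19200000 to 20600000 in WT libraries. At those depths Ccne1, the lowest of the 10 genes, had between 114 and 160 fragments per kilobase in KO libraries and between 89.7 and 164 in WT libraries, so counting error weighs most on that gene. Txnip itself was listed at 0, 0.04 and 0 FPKM in KO 1 to KO 3, against 112, 228 and 143 in WT 1 to WT 3, so genotypes match their labels. The CD41 gene Itga2b lay between 92.8 and 152 FPKM in KO libraries and between 83.2 and 111 in WT libraries. Genes of late megakaryocytes and platelets ranged widely in level over the 6 libraries. Tubb1 and Gp6 stayed at or under 1.47 FPKM, and Gp1bb lay between 2.86 and 4.18. Gp5 lay between 12.5 and 20.0 FPKM, Gp9 between 17.0 and 32.5, Ppbp between 24.7 and 151 and Pf4 between 465 and 1545. Markers of other blood cells were also present: the sum of 13 neutrophil and granulocyte genes was between 3947 and 8955 FPKM in KO libraries and between 5918 and 7552 in WT libraries. KO and WT libraries of the same number deviated together across all genes, and libraries 3 of both genotypes held Xist where libraries 1 and 2 held Y-linked transcripts. The KO and the WT library of 1 number are called a pair here.

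The promoters of Cdk1 and Cdk6 are shown. Among the 6 genes with a matched window, these had the clearest opposite patterns between libraries, described further on. Ccnd1 and Ccnd2 were high in libraries 1 too but had no matched window. Cdk6 was high in libraries 1 of both genotypes and Cdk1 was low in them. Each window runs from 250 bases before to 50 bases after a RefSeq start site on GRCm38.p6, read 5′ to 3′ on the gene's strand. The Cdk1 window is chr10:69352863-69353162 on the minus strand and the Cdk6 window is chr5:3343643-3343942 on the plus strand. Capitals mark the letters TTTGAA (the core of the cell cycle genes homology region), CCAAT, and the E2F motif in any of its forms TTTCCCGC, TTTCGCGC, TTTGCCGC and TTTGGCGC, each searched on both strands.
Cdk1: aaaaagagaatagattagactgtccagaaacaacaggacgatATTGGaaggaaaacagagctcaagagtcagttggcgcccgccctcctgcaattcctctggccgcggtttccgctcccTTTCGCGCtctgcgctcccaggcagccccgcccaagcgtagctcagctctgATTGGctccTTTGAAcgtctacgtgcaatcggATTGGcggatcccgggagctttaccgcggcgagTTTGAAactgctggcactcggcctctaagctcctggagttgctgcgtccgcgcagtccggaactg
Cdk6: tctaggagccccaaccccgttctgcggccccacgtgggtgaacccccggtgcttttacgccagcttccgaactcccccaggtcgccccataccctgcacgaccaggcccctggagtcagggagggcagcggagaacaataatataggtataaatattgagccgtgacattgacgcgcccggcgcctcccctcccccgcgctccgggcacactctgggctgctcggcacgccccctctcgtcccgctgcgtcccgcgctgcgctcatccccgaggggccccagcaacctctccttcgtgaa
In the Cdk1 window, TTTGAA was found 2 times, CCAAT 3 times and an E2F form 1 time, with no overlap between motifs. The Cdk6 window held none of these letters. Among 32851 mouse promoter windows of the same length, 17.9% held TTTGAA, 37.4% held CCAAT and 2.26% held an E2F form. RefSeq windows were matched for 6 of the 10 genes. Besides Cdk1, Cdk2 held an E2F form 1 time and CCAAT 1 time, 1 of the windows of Ccnd3 held CCAAT, and those of Ccne1 and Cdk4 held none of the motifs. Such matches describe the letters only.

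Across the 6 libraries the kinase Cdk4 was the most abundant of the 10 transcripts, with a mean of 267 FPKM, and Ccne1 the least, with 6.36 FPKM. FPKM is per length, so levels of different genes were set side by side. Differences between libraries varied with transcript length, as described further on. Levels, sums and shares that set genes of unlike length together carry this limit. Between them lay Ccna2 (122 FPKM), Cdk6 (109), Cdk1 (80.0), Ccnd3 (64.7), Ccnd2 (46.1), Cdk2 (36.3), Ccnd1 (21.1) and Ccne2 (16.8). Cdk4 was above Ccna2, Ccnd3 above Ccnd2, Cdk2 above Ccnd1 and Ccne2 above Ccne1 in 6 of 6 libraries. The other neighbours in this order changed places between libraries, each standing above the next in 3 or 4 of 6, so their order did not exceed the spread between libraries.

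**Figure D1:**
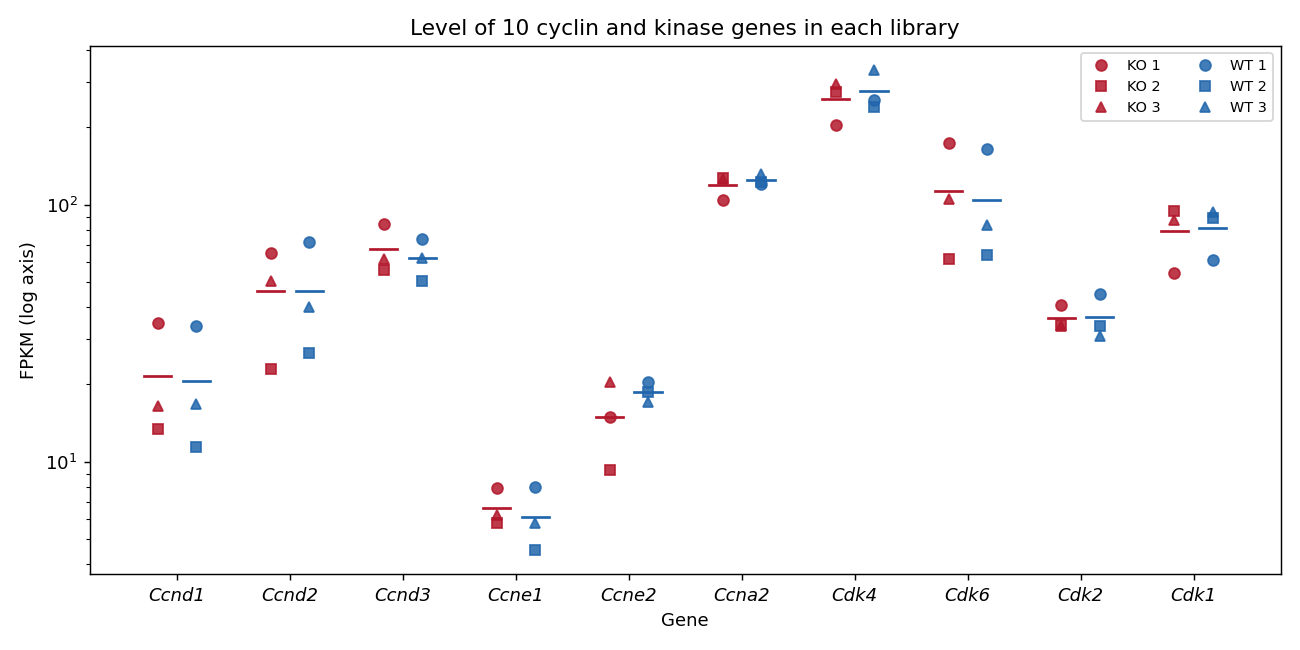
FPKM (log axis) of the 10 genes in each library, KO in red to the left of WT in blue; circles, squares and triangles are libraries 1, 2 and 3, and short lines are group means. Within a gene the symbols of the same shape lie close in KO and WT, as for Ccnd1 at 34.7 FPKM in KO 1 and 33.7 in WT 1.

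No difference between knockout and wild-type cells passed the test in any of the 10 genes. Of 11249 genes tested with limma on log2(FPKM + 1), 0.0178% passed an adjusted p of 0.05 in either direction, and 0 of the 10 cyclins and kinases did. With the replicate number as a block, 0.0267% of all genes and again 0 of the 10 passed. At an unadjusted p under 0.05 the number was 0 of 10 in both limma fits, against 0.676% of all genes without the block and 6.93% with it. The KO and WT values overlapped in all 10 genes, where 4.35% of all tested genes had groups that did not overlap. None of the 10 moved the same way in 3 of 3 pairs, while 29.1% of tested genes did. Differences were higher in KO for 4 genes and lower for 6, with a median of −0.0034 on the log2 scale, against 0.06 over all tested genes. With libraries rescaled to a common FPKM sum those medians were 0.17 and 0.22, and 5 of the 6 lower values turned higher. That rescaling lowers WT 2 the most, the library with the largest share of Rpph1 and Rmrp. Whether each library is from its own animal is not stated in the labels, so p-values cover only the spread between these libraries, part of which may be technical.

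**Figure D2:**
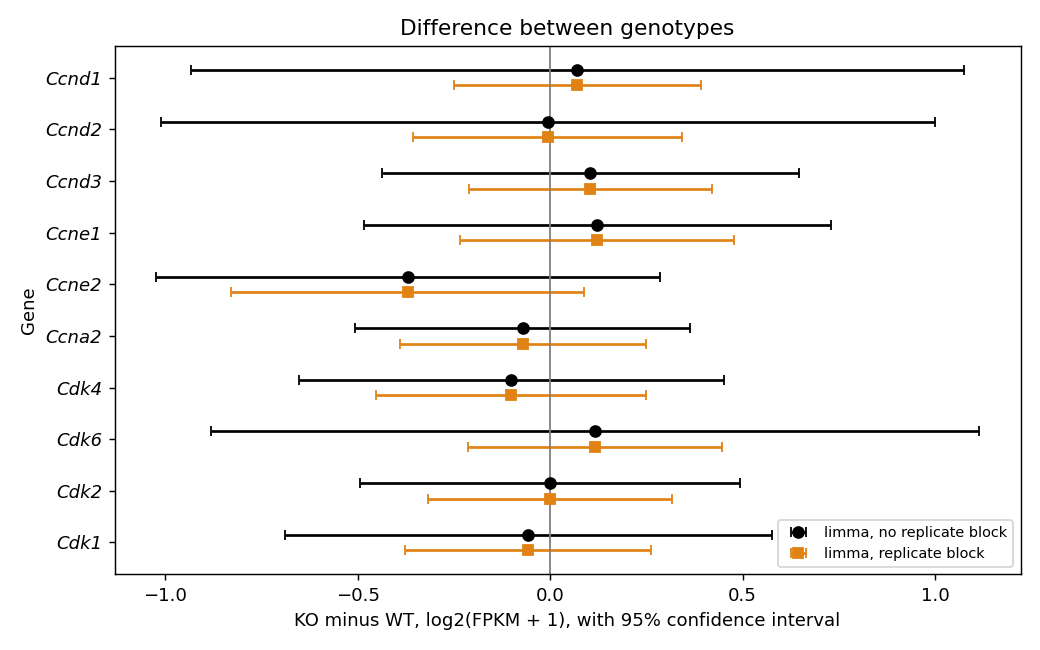
KO minus WT difference of log2(FPKM + 1) for each gene with its 95% confidence interval, from limma without the replicate block (black circles) and with it (orange squares). All intervals include 0, and those with the block are narrower in each gene.

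No D-type cyclin passed the test between genotypes. Ccnd1, cyclin D1, was at 34.7, 13.4 and 16.4 FPKM in KO 1 to KO 3, against 33.7, 11.4 and 16.9 in WT 1 to WT 3. Library 1 was the highest in both genotypes and the groups overlapped throughout. The difference was 0.07 (SE 0.44 and adjusted p = 1.00 by limma), with KO above WT in 2 of 3 pairs, and its 95% interval ran from 0.52-fold to 2.11-fold. With the replicate block that interval narrowed to 0.84-fold to 1.31-fold. Ccnd2, cyclin D2, was at 64.7, 23.0 and 50.6 FPKM in KO 1 to KO 3, against 71.7, 26.6 and 40.1 in WT 1 to WT 3. Its library 2 was lowest and its library 1 highest in both genotypes. The difference was −0.01 (SE 0.44; limma, adjusted p = 1.00), with a 95% interval of −1.01 to 1.00 on the log2 scale and, with the block, a fold between 0.78 and 1.27. Ccnd3, cyclin D3, which is known for raising megakaryocyte ploidy when overexpressed in mice, was at 84.6, 55.8 and 61.3 FPKM in KO 1 to KO 3, against 73.6, 50.6 and 62.3 in WT 1 to WT 3. It was the steadiest D-type cyclin, and its groups overlapped too. Its difference was 0.10 (SE 0.24; limma, adjusted p = 1.00), with an interval of 0.74-fold to 1.56-fold, or 0.86-fold to 1.34-fold with the block.

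The summed level of the D-type cyclins was 184, 92.2 and 128 FPKM in KO 1 to KO 3, against 179, 88.6 and 119 in WT 1 to WT 3. The KO value was the higher one in 3 of 3 pairs, by 4.96, 3.56 and 9.08 FPKM, though the difference of means, 5.87 FPKM, was −1.73 with median-ratio scaling and 16.4 with a common FPKM sum. The libraries within a genotype lay up to 91.7 FPKM apart in KO and up to 90.3 in WT. An exact permutation test over libraries gave p = 0.7 (two-sided; the smallest p it allows is 0.1), and an exact sign-flip permutation within pairs gave p = 0.25, which is the smallest it can give. Cyclin D3 held the largest share of this sum in each library, with 51.4% ± 7.92 in KO and 50.1% ± 8.19 in WT (SD, n = 3 each; exact permutation p = 0.9). Ccnd2 held 33.2% ± 7.43 in KO and 34.6% ± 5.08 in WT (SD, n = 3 each; exact permutation p = 0.9), and Ccnd1 15.4% ± 3.12 and 15.3% ± 3.13 (KO and WT; SD, n = 3 each; exact permutation p = 0.9). The makeup of the D-type cyclin pool therefore differed by less than the spread between libraries. Of the 6 sums and shares tested here and below, the smallest raw p was 0.3 in the exact test over libraries and 0.25 in the sign-flip test within pairs, and adjustment over them can only raise it.

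Cdk4 and Cdk6, the catalytic partners of the D-type cyclins, did not pass the test either. Cdk4 was at 204, 274 and 295 FPKM in KO 1 to KO 3, against 255, 239 and 335 in WT 1 to WT 3. KO 1 was the lowest of all 6 and WT 3 the highest. Its difference was −0.10 (SE 0.24; limma, adjusted p = 1.00), lower in KO in 2 of 3 pairs, with an interval of 0.64-fold to 1.37-fold, or 0.73-fold to 1.19-fold with the block. Cdk6 was at 174, 61.3 and 105 FPKM in KO 1 to KO 3, against 165, 63.9 and 83.3 in WT 1 to WT 3. Library 1 was 2.84-fold library 2 in KO and 2.59-fold in WT. The KO and WT means differed far less, by 0.12 on the log2 scale (SE 0.44; limma, adjusted p = 1.00), with an interval of 0.54-fold to 2.17-fold, or 0.86-fold to 1.36-fold with the block. Cdk6 made up 46.0%, 18.3% and 26.3% of the summed level of both kinases in KO 1 to KO 3, against 39.4%, 21.1% and 19.9% in WT 1 to WT 3. Cdk4 was thus the more abundant in each library, and the share did not differ between genotypes beyond its spread (exact permutation p = 0.7).

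Ccne2 showed the largest difference of the 10 genes, and it did not pass. Cyclin E2 was at 15.0, 9.28 and 20.5 FPKM in KO 1 to KO 3, against 20.4, 18.8 and 17.0 in WT 1 to WT 3. KO 2 was the lowest library and KO 3 the highest, so the WT libraries lay within the KO range. The difference was −0.37 (SE 0.29; limma, adjusted p = 1.00), lower in KO in 2 of 3 pairs, with an interval of 0.49-fold to 1.22-fold. With the block the interval was 0.56-fold to 1.06-fold and the adjusted p 0.779 (limma). Pair 2 differed most, by −0.94, pair 1 by −0.42 and pair 3 by 0.25 in the other direction. Ccne1, cyclin E1, was at 7.89, 5.78 and 6.21 FPKM in KO 1 to KO 3, against 7.96, 4.53 and 5.80 in WT 1 to WT 3. Its groups overlapped, with a difference of 0.12 (SE 0.27; limma, adjusted p = 1.00) and an interval of 0.72-fold to 1.66-fold. The share of Ccne1 in the summed level of both E-type cyclins was 34.5%, 38.4% and 23.3% in KO 1 to KO 3, against 28.1%, 19.5% and 25.4% in WT 1 to WT 3. KO 3 fell inside the WT range, and the exact permutation test gave p = 0.3 (two-sided).

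Ccna2, Cdk2 and Cdk1, which act in S phase and toward mitosis, did not pass the test. Cyclin A2, encoded by Ccna2, was at 104, 127 and 126 FPKM in KO 1 to KO 3, against 121, 123 and 131 in WT 1 to WT 3. Its highest library was 1.26-fold its lowest, the narrowest range of the 10 genes. The difference was −0.07 (SE 0.19; limma, adjusted p = 1.00), with an interval of 0.70-fold to 1.29-fold. Cdk2, the partner of cyclins E and A, was at 40.8, 34.1 and 33.6 FPKM in KO 1 to KO 3, against 44.9, 33.7 and 30.9 in WT 1 to WT 3. Library 1 was highest in both genotypes, and the means differed by −0.00059 (SE 0.22; limma, adjusted p = 1.00), with an interval of 0.71-fold to 1.41-fold. Cdk1, the mitotic kinase, was at 54.2, 95.0 and 87.5 FPKM in KO 1 to KO 3, against 60.8, 88.8 and 93.9 in WT 1 to WT 3. In contrast to Cdk2, its library 1 was the lowest in both genotypes. The difference was −0.06 (SE 0.28; limma, adjusted p = 1.00), with an interval of 0.62-fold to 1.49-fold.

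Most of the variation in these genes lay between the numbered libraries and not between genotypes. Of the sum of squares of log2(FPKM + 1), the library number accounted for a median of 91.8% over the 10 genes and 73.5% over all tested genes, and genotype for 2.84% and 5.57%. The share of the number was 98.9% in Ccnd1, 97.1% in Cdk6, 96.1% in Cdk1 and 96.1% in Ccnd2. It was 30.2% in Ccne2, the lowest of the 10. The number has 3 levels and genotype 2, so a larger share for the number would arise on average without an effect of either. These shares describe 6 libraries and carry no test, and what a number stands for is not given in the labels. In 6 of the 10 genes library 1 was above libraries 2 and 3 in KO and in WT, as it was in 38.4% of tested genes. These were the 3 D-type cyclins, Ccne1, Cdk6 and Cdk2. In 2 of the 10, Ccna2 and Cdk1, it was below both in each genotype, as in 19.8% of tested genes.

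**Figure D3:**
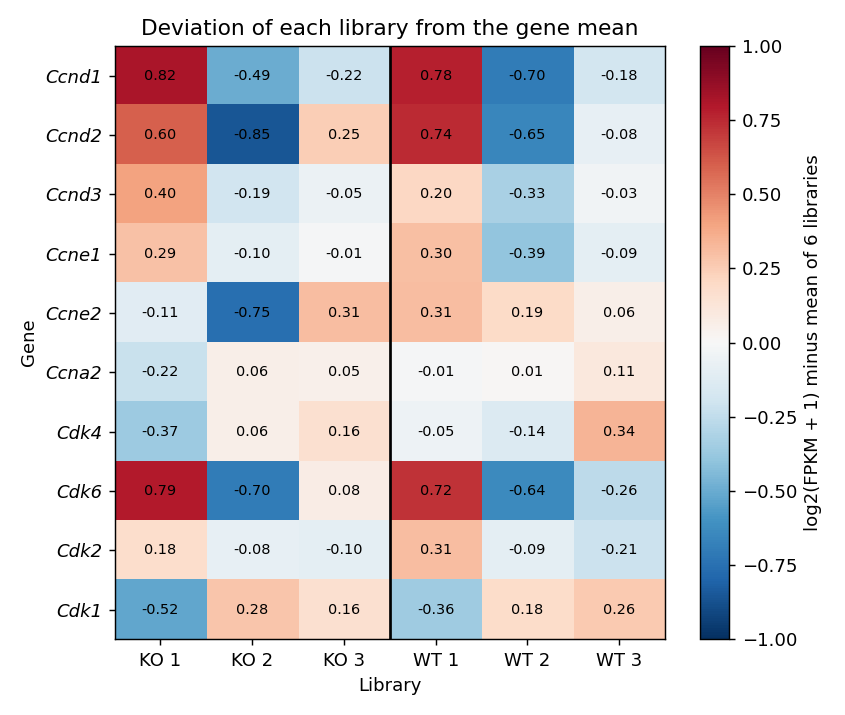
Deviation of each library from the mean of 6 libraries on the log2(FPKM + 1) scale, KO libraries left of the black line and WT libraries right of it; red is above and blue below the mean. Columns of the same number resemble each other across the line, with Ccnd1, Ccnd2 and Cdk6 high and Cdk1 low in libraries 1.

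Ccnd1, Ccnd2 and Cdk6 varied most along this axis. In KO cells library 1 was 2.59-fold library 2 for Ccnd1 and 2.81-fold for Ccnd2, and in WT cells 2.95-fold and 2.69-fold. Cdk1 ran the other way, at 0.57-fold in KO and 0.68-fold in WT. Several other measures moved with the number. The 15 megakaryocyte markers summed to 877, 2098 and 1185 FPKM in KO 1 to KO 3. In WT 1 to WT 3 they summed to 850, 1956 and 1575 FPKM. In 7 of 15 both libraries 1 lay below all other libraries, and in 3 of 15 above them. The 12 mast cell and basophil markers summed to 1480, 1114 and 679 FPKM in KO 1 to KO 3. In WT 1 to WT 3 they summed to 1629, 1162 and 1088 FPKM. In 6 of 12 both libraries 1 lay above all other libraries, and Tpsab1 was under 0.1 FPKM in all libraries. This rule is stricter than the one counted over all tested genes above. Its share over all tested genes was not counted, so these marker counts have no background to be read against. Ribosomal protein genes took 13.0%, 25.4% and 18.0% of the FPKM sum in KO 1 to KO 3, against 15.7%, 20.3% and 21.2% in WT 1 to WT 3. That sum includes Rpph1 and Rmrp, at 20.6%, 11.0% and 15.1% in KO 1 to KO 3 and 15.6%, 30.4% and 10.7% in WT 1 to WT 3. The ribosomal shares therefore depend on these 2 RNAs too. The part of these measures in the pattern of the cyclins and kinases was not tested.

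Transcript length moved with it as well. Tested genes were split into 4 classes of like size by their longest GENCODE transcript, a split made after the values were seen. The median difference between library 1 and library 2 was −0.26 in KO and −0.16 in WT in the shortest class, and 0.55 and 0.48 (KO and WT) in the longest, on the log2 scale. Cdk6, at 11525 bases, and Ccnd2, at 6330, belong to the longest class. Their differences were 1.49 and 1.45 in KO and 1.36 and 1.40 in WT. Ccnd1, at 3740 bases, lay in the class below it and differed by 1.31 in KO and 1.48 in WT, where the medians of that class were 0.24 and 0.32. Cdk1 lay in the same class and differed by −0.80 in KO and −0.54 in WT. The spread of genes within a class was not measured, and the part of length in the pattern of these genes was not tested. Between genotypes the medians of the 4 classes were closer together but rose with length. KO minus WT, they were −0.03, 0.06, 0.08 and 0.10 from the shortest class to the longest. They rose in pair 1 (−0.06 to 0.11) and pair 3 (−0.07 to 0.16). In pair 2 they were 0.04, 0.15, 0.14 and 0.05. The cyclins and kinases described here had a median absolute difference between genotypes of 0.086. The part of length in their genotype differences was not tested.

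**Figure D4:**
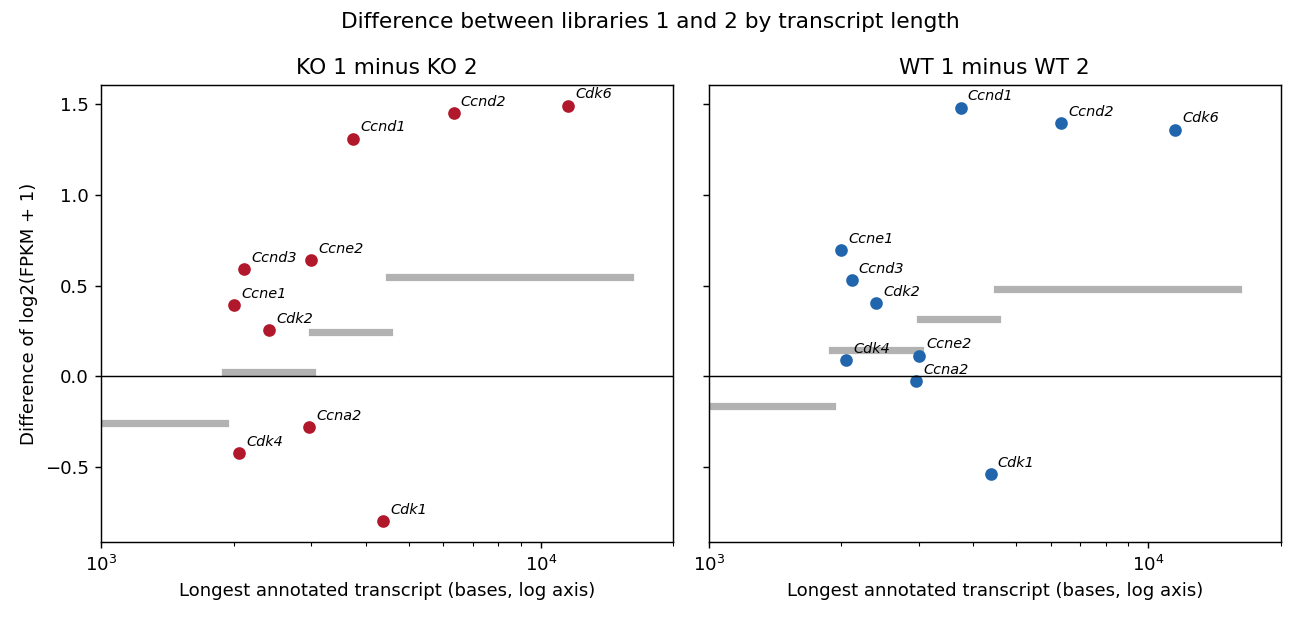
Difference between library 1 and library 2 on the log2(FPKM + 1) scale against the longest annotated transcript in bases (log axis), for KO on the left and WT on the right. Points are the 10 genes; grey bars are the medians of all tested genes in each class of length, with the outer bars drawn only within the axis; Cdk6, Ccnd2 and Ccnd1 lie above the bars and Cdk1 below in both panels.

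The rest of the cell cycle machinery was read from the same fit in 8 lists, none of whose members passed the test, with or without the block. Scaling by the median ratio turned the medians of the other cyclins, the activators and inhibitory kinases, the Rb and E2F family, the ubiquitin ligases and the mitotic genes to between −0.065 and −0.0039, and quantile normalization turned those of the activators and inhibitory kinases (−0.035) and the ubiquitin ligases (−0.049). With libraries rescaled to a common FPKM sum the medians of all 8 lists were positive, between 0.11 and 0.38, where that of all tested genes was 0.22. Each median is followed by its lowest and highest value with 1 library left out. Genes are named in the order of their p within a list, from the smallest. Among 13 other cyclins KO was above WT in 9 and below in 4 (median 0.06; −0.01 without WT 3 to 0.14 without KO 3), the same median as over all tested genes. Cyclin B1, encoded by Ccnb1 and partner of Cdk1, was at 75.2, 131 and 109 FPKM in KO 1 to KO 3, against 88.9, 111 and 122 in WT 1 to WT 3, so its library 1 was the lowest in both genotypes as for Cdk1. It was named outside the rule because it partners a gene described here. The splicing-linked cyclin Ccnl1 had the smallest p of this list, at 53.9 ± 15.5 FPKM in KO and 40.9 ± 7.96 in WT (SD, n = 3 each), and the related Ccnl2 was at 24.2 to 34.0 FPKM in KO libraries and 22.5 to 25.4 in WT libraries. Of 14 other cyclin-dependent kinases 10 were higher and 4 lower (median 0.16; −0.02 without KO 1 to 0.25 without KO 2). Cdk9, the kinase that releases paused RNA polymerase II, was at 24.2, 21.6 and 23.0 FPKM in KO 1 to KO 3, against 19.4, 15.8 and 18.7 in WT 1 to WT 3. Its groups did not overlap, as in 4.35% of all tested genes, and its difference was 0.34 (SE 0.20; limma, adjusted p = 1.00, and 0.690 with the block). Cdk14, a partner of cyclin Y, was at 1.78 ± 1.14 FPKM in KO and 1.00 ± 0.73 in WT (SD, n = 3 each).

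Among 11 activators and inhibitory kinases of the CDKs, 6 were higher and 5 lower (median 0.02; −0.13 without WT 2 to 0.12 without WT 1). Cks2, a small CDK-binding subunit, was lower in 3 of 3 pairs, at 211 ± 76.8 FPKM in KO and 256 ± 81.5 in WT (SD, n = 3 each). The phosphatase gene Cdc25c, which activates Cdk1, was at 13.6 ± 4.31 in KO and 11.1 ± 2.06 in WT (SD, n = 3 each). Of 20 genes of the Rb and E2F family 13 were higher and 7 lower (median 0.07; −0.14 without KO 1 to 0.27 without WT 1). The pocket protein gene Rbl2 was at 27.0, 32.1 and 25.9 FPKM in KO 1 to KO 3, against 24.4, 24.1 and 22.2 in WT 1 to WT 3. The groups of Rbl2 did not overlap, as in 4.35% of all tested genes, but it did not pass the test (0.25, SE 0.20; limma, adjusted p = 1.00). E2f2 was at 8.94 ± 3.03 FPKM in KO and 7.44 ± 1.55 in WT (SD, n = 3 each). Of 22 ubiquitin ligase genes of cyclins and their regulators 12 were higher and 10 lower (median 0.02; −0.04 without WT 2 to 0.06 without WT 3). Anapc10, a subunit of the anaphase-promoting complex, was at 5.76 ± 0.73 FPKM in KO and 7.37 ± 2.99 in WT (SD, n = 3 each). Fbxo5, an inhibitor of that complex, was at 40.7 ± 7.91 in KO and 35.6 ± 3.08 in WT (SD, n = 3 each).

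The CDK inhibitors had a positive median difference and the S phase genes a negative one, with the S phase sign depending on single libraries and on scaling. All 5 tested CDK inhibitor genes had higher values in KO, as did 7131 of all 11249 tested genes, with a median of 0.21 (0.03 without WT 3 and 0.07 without KO 2, to 0.34 without WT 2 and 0.36 without KO 3), while 3 of the 8 listed were under the filter. Cdkn2c, encoding p18, was at 28.5 ± 6.72 FPKM in KO and 23.4 ± 2.24 in WT (SD, n = 3 each). Cdkn1a, encoding p21, was at 30.5, 12.6 and 12.4 FPKM in KO 1 to KO 3, against 16.9, 14.1 and 7.26 in WT 1 to WT 3, and Cdkn1b, encoding p27, was at 25.9 ± 5.47 in KO and 22.2 ± 4.94 in WT (SD, n = 3 each). Of 28 S phase targets of E2F, 22 had lower and 6 higher values in KO (median −0.06), where 4118 of all 11249 tested genes were lower. At an unadjusted p under 0.05 the limma fits gave 0 of 28 with and without the block. The pair medians were −0.31, 0.09 and −0.08, so pair 1 held most of the difference, and the median of the list was −0.18 without WT 2, −0.16 without KO 3, 0.0034 without KO 1, 0.0064 without WT 1, 0.0068 without WT 3 and 0.11 with libraries rescaled to a common sum. Rfc4, a subunit of the complex that loads the sliding clamp Pcna, was at 38.7 ± 8.61 FPKM in KO and 51.3 ± 14.7 in WT (SD, n = 3 each). Tyms, the thymidylate synthase gene, was at 20.2 ± 3.28 FPKM in KO and 24.5 ± 0.73 in WT (SD, n = 3 each). Pcna, the sliding clamp of DNA polymerase, was at 260, 302 and 326 FPKM in KO 1 to KO 3, against 331, 351 and 383 in WT 1 to WT 3. All KO libraries lay below all WT libraries, as in 1.03% of tested genes, but the difference of −0.27 (SE 0.21; limma, adjusted p = 1.00) did not pass. Of 27 genes of G2 and mitosis 19 were higher and 8 lower (median 0.08; 0.0034 without KO 2 to 0.16 without KO 1). Mad2l1, of the spindle checkpoint, was at 65.2 ± 1.31 FPKM in KO and 80.5 ± 22.9 in WT (SD, n = 3 each), and the kinesin gene Kif23 at 27.0 ± 4.05 in KO and 23.3 ± 3.23 in WT (SD, n = 3 each). Markers of blood cell types were read beside these lists, without a test. All 15 monocyte, macrophage and dendritic cell markers had a higher mean FPKM in KO, where 7131 of all 11249 tested genes were higher on the log2 scale. Their sums were 2669, 1769 and 2409 FPKM in KO 1 to KO 3, against 1382, 1745 and 2512 in WT 1 to WT 3. The sum was thus higher in KO in pairs 1 and 2 alone. All 7 eosinophil markers had a lower mean FPKM in KO, where 4118 of all 11249 tested genes were lower on the log2 scale. Their sums were 205, 587 and 496 FPKM in KO 1 to KO 3, against 440, 612 and 768 in WT 1 to WT 3. Prg2 alone was at 168, 522 and 431 FPKM in KO 1 to KO 3, against 383, 534 and 681 in WT 1 to WT 3. Ear1 and Ear2 stayed at or under 1.46 FPKM. The other marker lists were mixed. The mean was higher in KO in 8 of 15 megakaryocyte, 7 of 13 neutrophil and granulocyte and 4 of 12 mast cell and basophil markers. It was higher in 3 of 11 erythroid, 6 of 10 stem and progenitor and 3 of 9 B, T and NK cell markers. The part of these markers in the values of the cell cycle lists was not tested.

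**Figure D5:**
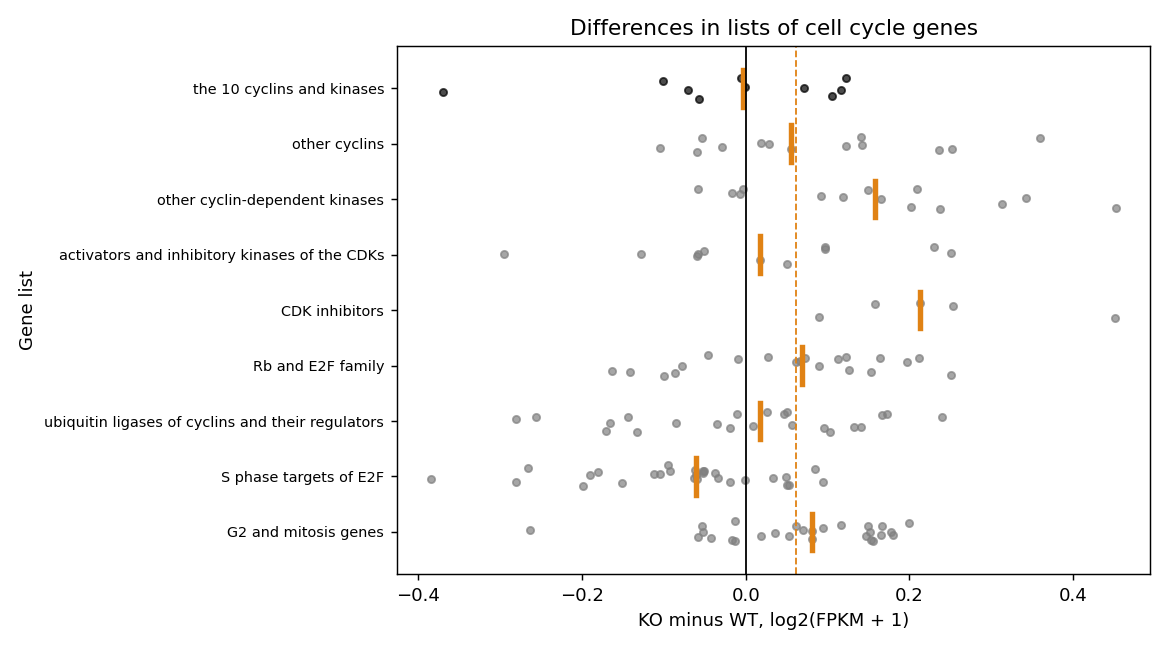
KO minus WT difference of log2(FPKM + 1) for each tested gene (points, spread vertically at random) of the 10 cyclins and kinases and of 8 lists of cell cycle genes; orange bars are list medians and the dashed line is the median of all tested genes, 0.06. The S phase list lies left of the dashed line and the CDK inhibitors right of it.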

How the data were processed

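RNA-seq values of 3 KO and 3 WT libraries were used as the authors deposited them, in FPKM per gene symbol. The submitters' processing notes name the build mm9 and the tools RSEM 1.2.31, STAR 2.7.0a, Trimmomatic 0.39 and FastQC. Their settings, the gene annotation and the strand setting are not stated there. RSEM estimates how reads are shared between similar transcripts. The 10 genes and all gene lists were chosen with earlier results of these data known.

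limma 3.58.1 (R 4.3.3; lmFit, eBayes with a trend) tested KO against WT on log2(FPKM + 1), two-sided, on the 11249 genes that reached 1 FPKM in 3 or more libraries. P-values were adjusted over all of them by Benjamini-Hochberg, at a threshold of 0.05. Fold changes on this scale understate changes of low genes. Sums and shares used exact permutation tests. Named genes were the 10, Txnip, and the genes of smallest p of each list (up to 4). 1 gene under this rule is not reported here. Replicate numbers were taken to pair libraries: deviations from group means correlated across genes with r of 0.81, 0.59 and 0.38 for numbers 1, 2 and 3. Alternatives were the replicate block, pseudocount, filters, scalings, no trend and left-out libraries.

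Depth was estimated from the spacing of low FPKM values of genes with 1 GENCODE M21 transcript on GRCm38, another build than mm9, so it is approximate. Lengths came from the same annotation, for 96.1% of tested genes. Depth, length and sum-of-squares descriptions were added after the values were seen. The gene test was tested on simulated data.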

Additional observations from a re-analysis of the deposited data

How the results depend on the processing

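The count of 0 of 10 cyclins and kinases past the threshold was the same under all 18 alternatives of the limma fit; the smallest adjusted p for any of the 10 under them was 0.130, for Ccne2 with the replicate block and without pair 3. The replicate block changed no call among the 10 genes or the 8 lists. The count over all genes was 3 with the block against 2 without it, 1 with no filter on low values, and between 1 and 3 with a library left out. With the block and pair 1, 2 or 3 left out it was 36, 142 and 118; those fits leave a single residual degree of freedom per gene. With a common FPKM sum, which lowers WT 2 the most, the differences (KO minus WT, log2) turned positive for Ccnd2 (0.16), Ccna2 (0.11), Cdk4 (0.077), Cdk2 (0.17) and Cdk1 (0.12). Scaling by the median ratio turned Ccnd1 to −0.011, also with the replicate block (−0.011), and quantile normalization turned Cdk4 to 0.020. With the block and without pair 1, Ccnd2 was at 0.063, Cdk4 at 0.0075 and Cdk2 at 0.066; without pair 2, Ccnd2 was at 0.091. With single libraries left out the differences ran from −0.32 to 0.48 for Ccnd1, −0.34 to 0.42 for Ccnd2, −0.070 to 0.23 for Ccnd3, −0.043 to 0.30 for Ccne1, −0.62 to −0.086 for Ccne2, −0.12 to 0.022 for Ccna2, −0.21 to 0.058 for Cdk4, −0.25 to 0.51 for Cdk6, −0.11 to 0.15 for Cdk2 and −0.25 to 0.19 for Cdk1. The KO minus WT difference of the summed D-type cyclins was −1.73 FPKM with the median ratio and 16.4 with a common sum, against 5.87 as deposited, and −18.7 to 30.9 with libraries left out. Shares ran, in percentage points, from −1.64 to 1.87 for Ccnd1, −4.50 to 2.73 for Ccnd2, −3.26 to 4.76 for Ccnd3, −4.50 to 9.70 for Cdk6 and 4.56 to 12.1 for Ccne1. With 3 libraries a group, the intervals without the block allow changes of up to 2.17-fold (Cdk6); the cause of the sign changes was not tested.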
